A study of Mus musculus with 14 samples.

Results

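The kidneys collected at day 3 after renal ischemia/reperfusion injury (IRI) were compared with the kidneys of day 0. The comparison takes in 9 of the 14 bulk RNA-sequencing libraries of the study, those titled 0d_1 to 0d_4 and 3d_1 to 3d_5, which gives 4 libraries at day 0 and 5 at day 3. All came from whole kidney of male C57/B6 mice aged 8 weeks, with no transgene, deletion or drug named for either group, so the groups differ by label only in the day. Whether the kidneys of day 0 had a sham operation, and whether each library was 1 mouse, is not given in the sources used here, so the p-values measure the spread between these libraries, part of which may be technical. Reads on genes ranged from 16485636 to 17935503 per library at day 0 and from 12485579 to 19168972 at day 3. Names of the libraries carry a number, which is written with 1 digit for every library of day 0. At day 3 it is written with 1 digit for replicates 4 and 5, and with 3 digits for the other 3 replicates. What this format marks is not stated, so it was handled as a possible technical batch, and counts or medians of most lists are also given within each format (at 1 digit and at 3 digits). Against day 0, which holds 1-digit libraries only, the 3-digit values mix day and format, which cannot be told apart there. On log2 CPM (reads of a gene scaled by the reads of its library) over all genes tested, replicate 2 of day 3 was the library of day 3 nearest to day 0, with a mean distance of 111.2 against 131.2 to 178.1 for the other 4 and a largest distance of 66.71 among the libraries of day 0.

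IRI cuts off and then restores the blood supply of the kidney, and it injures chiefly the proximal tubule, the segment that takes back most of the filtered sodium, glucose, phosphate and amino acids and secretes organic ions. Surviving tubular cells lose specialised functions, switch on injury genes and can re-enter the cell cycle to repair the epithelium, while leukocytes enter the tissue and interstitial cells lay down matrix. The results below follow that order, from repair genes through immune genes to the genes of transport and metabolism. In bulk tissue, fewer cells of a type and less RNA per cell cannot be told apart, which holds for every class described here.

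By edgeR's quasi-likelihood test with Benjamini-Hochberg adjustment, 4757 of the 14300 genes tested differed between day 3 and day 0 at an adjusted p under 0.05, which is 33.3% of them. Of these, 2783 genes (19.5%) were higher and 1974 (13.8%) were lower at day 3. On total counts without TMM scaling the split was 3625 higher and 1286 lower, and the median log2 fold change over all genes moved from 0.05 to 0.19. Every library of day 3 lay above, or every one below, all 4 libraries of day 0 in 4774 genes, 33.4% of those tested, and 3777 of these were among the 4757. When the formats of day 3 were fitted apart, 7680 genes differed from day 0 in the 1-digit libraries (4084 higher and 3596 lower). In the 3-digit libraries 4635 did (2738 higher and 1897 lower), and 2645 genes differed between the 2 formats at day 3. More of the 14300 genes thus passed at 1 digit than at 3 digits, in both directions. The counts of a list by format, given below, are to be read beside these counts. The pooled sign was the sign in both formats for 4744 of the 4757 genes, and 3462 passed the test with that sign in both.

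To describe repair, immune and transport genes by class, 34 lists with 615 genes were drawn up, of which 558 were tested. Repair lists held 143 tested genes, and 95 of them rose while 12 fell. Immune lists held 127, of which 66 rose and 10 fell. Among the 161 tested genes of transport the direction was the opposite, with 77 that fell and 9 that rose. These counts compare with 19.5% higher and 13.8% lower over all genes tested. Because the lists and members were chosen with earlier results of these data known, the comparison only describes them. A list's median log2 fold change is given below beside the median of all genes, 0.05.

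**Figure D1:**
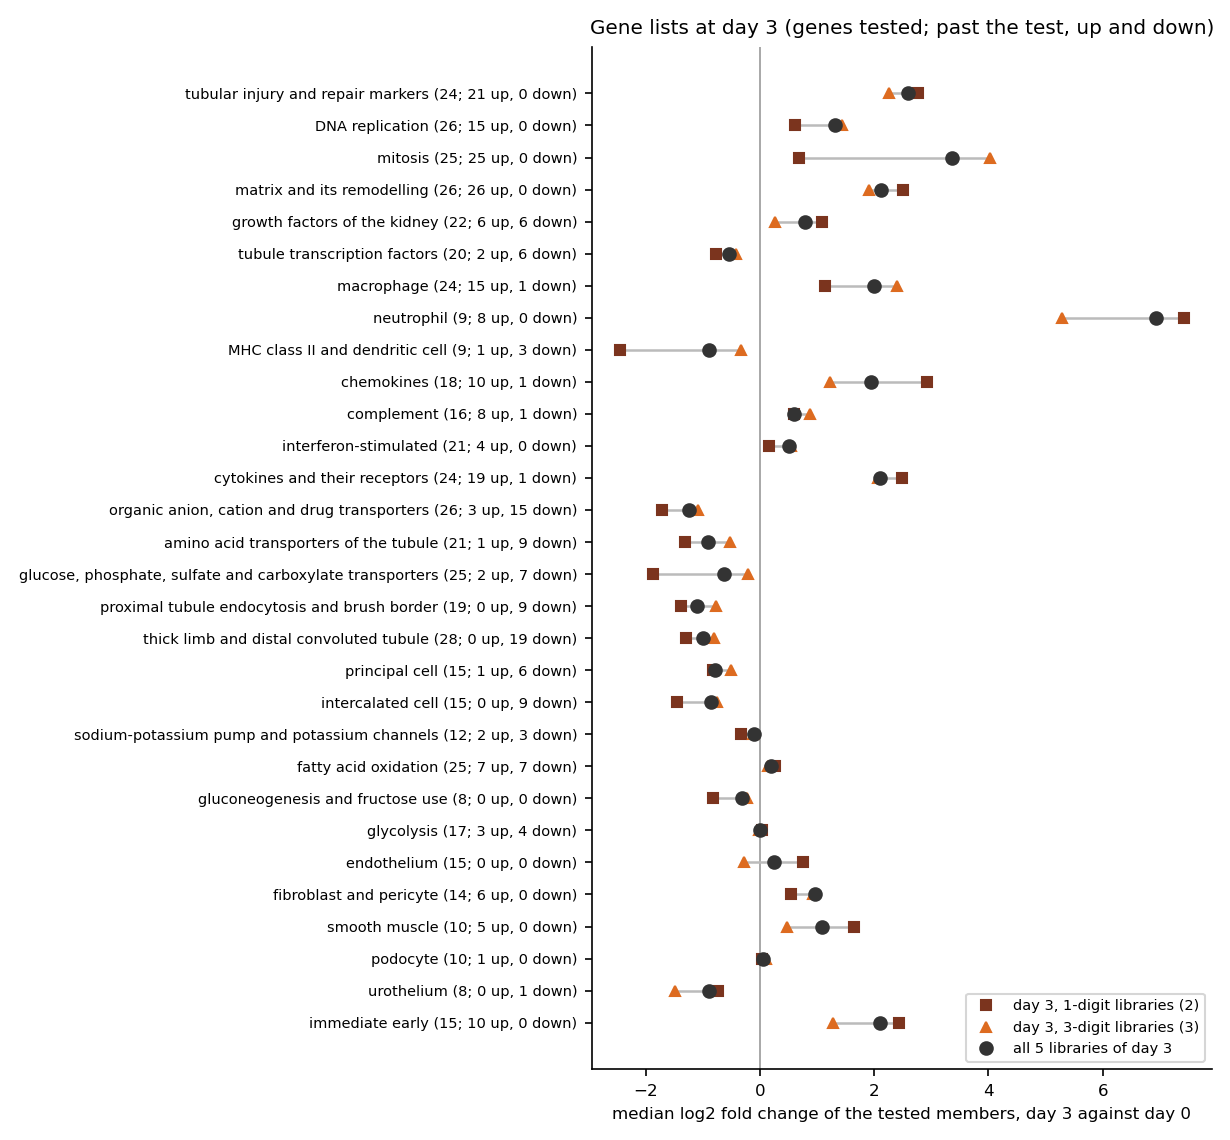
Each row is a gene list with at least 5 genes tested, and the horizontal axis is the median log2 fold change of its members, day 3 against day 0. Circles stand for all 5 libraries of day 3, squares for its 1-digit and triangles for its 3-digit libraries. The matrix list lies near 2 in both formats, and the mitosis list lies at 0.69 in the 1-digit and at 4.03 in the 3-digit libraries.

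Across the genome, the genes were ranked by log2 fold change among those past the test with at least 5 CPM on average and with groups that did not overlap. Here and below, the CPM of a gene are listed for replicates 1 to 4 of day 0 and then for replicates 1 to 5 of day 3, the bracket gives the log2 fold change with its standard error (SE), and overlap of the groups is stated where it occurred. The 12 largest rises held genes of injured epithelium, of myeloid cells and of proteases and their inhibitors. Lcn2 (chr2:32384633-32388252 of GRCm38), which encodes the iron-siderophore-binding protein NGAL, was measured at 2.13, 3.24, 1.96 and 1.63 CPM in the 4 libraries of day 0 and at 2063, 66.1, 681, 2672 and 3403 CPM in replicates 1 to 5 of day 3 (log2 fold change 9.63 ± 1.10 SE, adjusted p = 5.13e-05, edgeR). Krt20 (chr11:99428403-99438150), a keratin of epithelial filaments, stood at 0.0575, 0.471, 0.379 and 2.54 CPM at day 0 and at 169.9, 52.6, 84.95, 225 and 878 CPM at day 3 (8.35 ± 1.13 SE, adjusted p = 0.000176, edgeR). As the ranking required, both genes were higher in all 5 libraries of day 3 than in any library of day 0. Replicate 2 was the lowest of day 3 in each. Timp1, an inhibitor of metalloproteinases, had 0.115, 0.5296, 0 and 0.121 CPM at day 0 and 55.1, 10.7, 28.2, 50.5 and 65.7 CPM at day 3 (7.70 ± 0.85 SE, adjusted p = 3.88e-05, edgeR). Tpsab1, a mast cell tryptase, and Sprr2f, a small proline-rich protein of epithelia, were seen at day 0 only in replicate 4, at 0.484 CPM each. At day 3 Tpsab1 reached 37.4, 4.34, 19.3, 30.9 and 104 CPM, and Sprr2f 22.7, 4.56, 23.1, 16.2 and 46.9 CPM. The other 7 genes had at most 3 reads in any library of day 0, so no fold is given for them. Retnlg, a resistin-like protein of myeloid cells, had 1 read at day 0 and 22.9, 0.169, 3.71, 13.7 and 62.2 CPM at day 3, and Chil3, a chitinase-like protein of myeloid cells, had 1 read at day 0 and 31.7, 2.59, 31.8, 10.6 and 12.1 CPM at day 3. Of the myeloid lectin receptor Clec4d the values at day 3 were 17.5, 2.76, 10.9, 9.55 and 7.199 CPM, and of the interleukin-1 decoy receptor Il1r2 they were 14.3, 1.75, 5.297, 12.4 and 30.4 CPM. Fosl1, a subunit of the AP-1 transcription factor, had 3.72, 5.35, 5, 4.64 and 32.98 CPM at day 3. The remaining members were Gm3776 and Slc6a19os, the transcript opposite to the amino acid transporter Slc6a19, at up to 31.8 and 51.2 CPM.

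Among the 12 largest falls were 3 organic anion transporter genes of the Slc22 family. Slc22a7 (chr17:46432183-46438457), which encodes OAT2, went from 201, 240.4, 181 and 313 CPM in the libraries of day 0 to 1.02, 2.48, 0.792, 1.88 and 0.881 CPM in those of day 3 (log2 fold change -7.37 ± 0.37 SE, adjusted p = 9.07e-08, edgeR). The fall was alike in both formats, -7.38 in the 1-digit and -7.37 in the 3-digit libraries. The groups, which the ranking required not to overlap, lay far apart. Slc22a19 and Slc22a26, which lie with related genes of high similarity and may share reads with them, had -6.27 (adjusted p = 0.000171, edgeR) and -5.68 (adjusted p = 0.000311, edgeR) on the log2 scale. Cyp7b1, a hydroxylase of oxysterols and steroids, was at 287, 405, 281 and 393 CPM at day 0 and at 2.596, 7.77, 4.65, 3.63 and 1.102 CPM at day 3 (-6.42 ± 0.77 SE, adjusted p = 7.8e-05, edgeR). Mep1b, the beta subunit of the brush border protease meprin, was at 268, 307, 305 and 297 CPM and at 0.662, 29.7, 1.53, 0.942 and 0.661 CPM (-5.45 ± 1.01 SE, adjusted p = 0.00144, edgeR), where replicate 2 of day 3 stood above the other 4. The remaining falls, from -6.64 to -5.68 on the log2 scale, were those of Nccrp1, the complement component C8a, Gm6300, the tenascin Tnn, the adhesion molecule Ceacam2, the serpin Serpina1f and the apolipoprotein gene Apob.

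**Figure D2:**
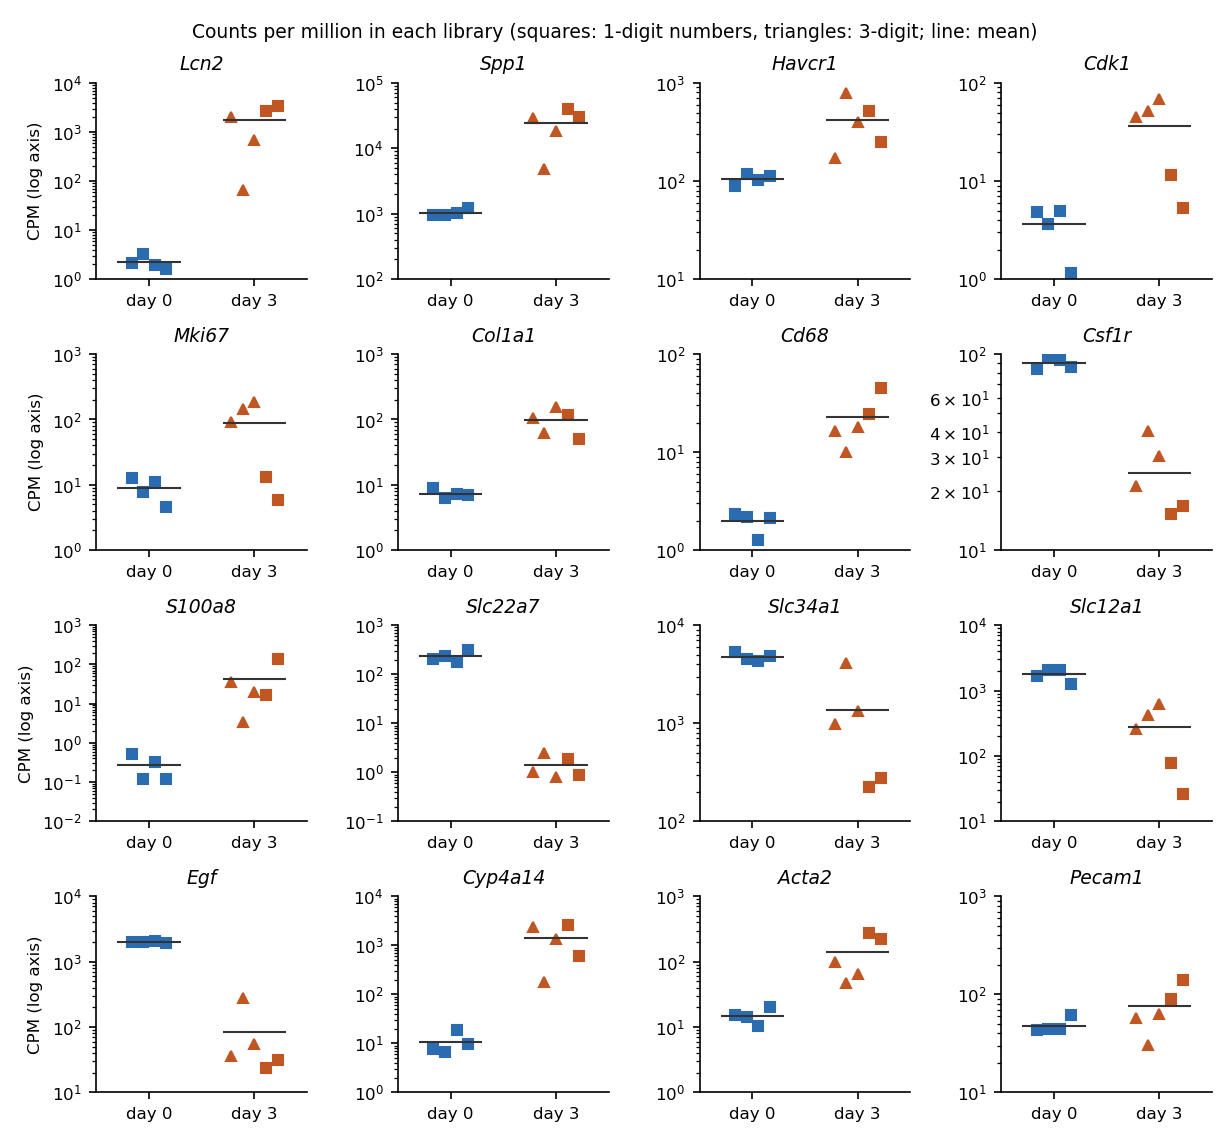
Each panel plots the CPM of 1 gene on a log axis in the 4 libraries of day 0 and the 5 of day 3. Squares are libraries with 1-digit numbers, triangles those with 3-digit numbers, and the line is the mean. Slc22a7 is at 181 to 313 CPM at day 0 and at 0.792 to 2.48 CPM at day 3, while Mki67 overlaps day 0 in replicate 5 of day 3 only.

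Of the 24 tubular injury and repair markers, 21 rose and none fell, with a median log2 fold change of 2.59 (2.76 in the 1-digit and 2.26 in the 3-digit libraries). At 1 digit 19 rose and at 3 digits 23. In 20 of the 24 the groups did not overlap. A list score, the median over the members of log2 CPM minus the day 0 mean, lay between 2.25 and 3.06 in the 5 libraries of day 3 and between -0.16 and 0.23 in those of day 0, so all 5 libraries of day 3 stood apart from day 0. Spp1 (chr5:104435118-104441050), the gene of the secreted phosphoprotein osteopontin, was the most abundant, at 940.2, 961, 1008 and 1231 CPM at day 0 and 28990, 4883, 18590, 39740 and 30420 CPM at day 3 (log2 fold change 4.57 ± 0.61 SE, adjusted p = 0.000164, edgeR). Clu (chr14:65968483-65981547), the gene of the secreted chaperone clusterin, was at 133, 124, 136 and 190.3 CPM and at 1950, 815, 1508, 1236 and 1676 CPM (3.30 ± 0.26 SE, adjusted p = 4.19e-06, edgeR), with 3.32 in the 1-digit and 3.29 in the 3-digit libraries. Here too replicate 2 was the lowest of day 3. Sox9, a transcription factor of regenerating tubular cells, was at 0.403, 0.412, 0.253 and 0.605 CPM and at 11.6, 3.27, 6.58, 3.497 and 15.7 CPM (4.25 ± 0.62 SE, adjusted p = 0.000279, edgeR). Cdkn1a, the cell cycle inhibitor p21, was at 18.5, 31.7, 36.4 and 22.4 CPM and at 236, 37.1, 116, 218 and 362 CPM (2.83 ± 0.60 SE, adjusted p = 0.0033, edgeR), and its replicate 2 of day 3 stood just above the highest library of day 0. Vcam1, an adhesion molecule, was at 7.59, 11.8, 9.602 and 6.05 CPM and at 11.2, 62.2, 23.8, 9.35 and 15.7 CPM (1.48 ± 0.50 SE, adjusted p = 0.0341, edgeR), where replicate 2 was far above the rest and 2 libraries of day 3 lay within the range of day 0. Havcr1 (chr11:46735080-46779578), the gene of KIM-1, a receptor for phosphatidylserine on dying cells, was at 89.8, 119, 104 and 111 CPM and at 170.3, 786, 398, 516 and 248 CPM. All 5 libraries of day 3 were higher than those of day 0, yet the spread within day 3 was wide and the pooled difference did not pass the test, while that of each format did (2.00 ± 1.05 SE, adjusted p = 0.155, edgeR, with 1.85 at 1 digit, adjusted p = 0.0154, and 2.09 at 3 digits, adjusted p = 0.00927). The other 2 members that did not pass were Itgb6 (-0.10) and Dcdc2a (0.55 ± 0.46 SE, adjusted p = 0.365, edgeR, with 0.19 at 1 digit, adjusted p = 0.589, and 0.75 at 3 digits, adjusted p = 0.0343), both with overlapping groups.

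Of the cell cycle genes, all 25 of the mitosis list but only 7 of the 26 DNA replication genes differed between the formats of day 3. The replication score was 0.89, 1.535 and 1.84 in replicates 1 to 3 of day 3. It was 0.60 and 0.67 in replicates 4 and 5, against -0.39 to 0.44 at day 0. DNA replication genes rose in 15 of 26 cases with none lower, and the median log2 fold change was 1.31, with 0.61 in the 1-digit and 1.43 in the 3-digit libraries. At 1 digit 10 rose and 1 fell, and at 3 digits 24 rose. Rrm2, a subunit of the ribonucleotide reductase that supplies deoxynucleotides, was at 9.61, 5.36, 7.45 and 3.99 CPM at day 0 and at 84.8, 101, 186, 28.6 and 29.3 CPM at day 3 (log2 fold change 3.70 ± 0.57 SE, adjusted p = 0.000425, edgeR). Chaf1b, a subunit of a histone chaperone of replication, was at 3.11, 0.942, 2.53 and 0.847 CPM and at 12.9, 10.2, 17.4, 13.1 and 14.03 CPM (2.86 ± 0.45 SE, adjusted p = 0.000459, edgeR), and differed little by format (2.87 in the 1-digit and 2.86 in the 3-digit libraries). Pcna, the sliding clamp of DNA polymerases, was at 59.1, 46.9, 56.2 and 37.9 CPM and at 74.8, 109.9, 156, 74.98 and 81.5 CPM (0.99 ± 0.23 SE, adjusted p = 0.00551, edgeR). The helicase subunit Mcm5 was at 23.2, 11.7, 16.3 and 6.53 CPM and at 22.1, 58.7, 63.7, 19.8 and 16.2 CPM, with overlapping groups, and did not pass the test (1.32 ± 0.60 SE, adjusted p = 0.1, edgeR, with 0.32 at 1 digit, adjusted p = 0.645, and 1.74 at 3 digits, adjusted p = 0.0144).

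All 25 mitosis genes rose, and the median log2 fold change was 3.37, the highest of the lists of 20 or more genes. The rise rested on replicates 1, 2 and 3 of day 3, the 3-digit libraries. With the formats fitted apart, 25 of 25 were higher than day 0 in the 3-digit libraries (median 4.03) and 5 of 25 in the 1-digit libraries (median 0.69), and all 25 differed between the formats. The groups of day 0 and day 3 did not overlap in only 4 of the 25. The list score was 3.75, 3.997 and 4.34 for replicates 1 to 3 of day 3, and it was 1.22 and 0.12 for replicates 4 and 5, against -0.86 to 0.61 at day 0. Mki67 (chr7:135689784-135716361), the gene of the proliferation marker Ki-67, was at 12.7, 7.83, 11.2 and 4.54 CPM at day 0 and at 92.7, 145, 188, 13.2 and 5.95 CPM at day 3 (log2 fold change 3.30 ± 0.80 SE, adjusted p = 0.007, edgeR), with 0.08 in the 1-digit and 3.97 in the 3-digit libraries. Top2a (chr11:98992943-99024189), a topoisomerase that untangles chromosomes, was at 6.96, 4.47, 7.33 and 1.94 CPM and at 54.3, 95.8, 134, 9.48 and 2.94 CPM (3.52 ± 0.93 SE, adjusted p = 0.0108, edgeR). In both genes replicate 5 of day 3 lay within the range of day 0. The same overlap was seen in Ccnb1 and Ttk below. Cdk1 (chr10:69335146-69352938), the kinase that drives entry into mitosis, was at 4.77, 3.65, 4.99 and 1.15 CPM and at 44.7, 51.7, 68.8, 11.6 and 5.36 CPM (3.32 ± 0.69 SE, adjusted p = 0.0028, edgeR), and the lowest library of day 3 was just above the highest of day 0. Ccnb1, the cyclin partner of Cdk1, was at 2.53, 1.29, 2.72 and 0.605 CPM and at 46.8, 38.8, 45.4, 8.88 and 1.69 CPM (3.98 ± 0.82 SE, adjusted p = 0.0027, edgeR). The spindle checkpoint kinase Ttk was at 0.6903, 0.353, 0.695 and 0.0605 CPM and 6.46, 9.29, 12.9, 1.48 and 0.441 CPM (3.75 ± 0.94 SE, adjusted p = 0.00841, edgeR). The difference between the formats had an adjusted p of 0.00217 for Mki67 and 0.00731 for Cdk1 (edgeR). Across the genome the centromere genes named Cenp rose in 13 of 19 and the kinesins named Kif in 18 of 38, with 0 and 4 lower. With the 1-digit libraries of day 3 alone, 4 Cenp genes rose, and 10 Kif genes rose while 6 fell.

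The letters before the start sites were read for the mitosis genes, of which all 25 rose, and for the replication genes, of which 15 of 26 rose. RefSeq promoter windows of GRCm38.p6, 250 bases before to 50 after each start, were found for 20 of the 25 mitosis genes and 22 of the 26 replication genes. The letters TTTGAA, known as the cell cycle genes homology region, were searched on both strands and stood in 15 of 20 mitosis genes (75%) and 3 of 22 replication genes (13.6%), against 20.2% of all 27025 genes with a window and 14.5% of the 10827 that were also tested. CCAAT, the box bound by the factor NF-Y, stood in 18 of 20 (90%) and 14 of 22 (63.6%), against 41.1% and 42.3%. The letters TTTGGCGC or TTTCGCGC, forms of the E2F site, stood in 1 of 20 (5%) and 8 of 22 (36.4%), against 0.929% and 1.76%. A gene with several windows counted once if any of them held the letters, and TTTGGCGC and TTTCGCGC overlap in part when they face each other. These are descriptions of letters, and no binding was measured. To show where the letters lie, 4 mitosis genes and 2 replication genes are printed below as the 120 bases that end 1 base before the RefSeq start, 5′ to 3′ on the strand of the gene, with the searched letters in capitals on either strand, so ATTGG is CCAAT and TTCAAA is TTTGAA read from the other strand. The last 26 bases of the Cdk1 window and the last 9 of the Cdc20 window lie in exons of longer transcripts of the GENCODE annotation.
Cdk1, chr10:69352913-69353032, minus strand: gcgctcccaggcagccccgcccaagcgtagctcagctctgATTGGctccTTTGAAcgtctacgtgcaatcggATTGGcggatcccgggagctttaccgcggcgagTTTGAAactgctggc
Cdc20, chr4:118437344-118437463, minus strand: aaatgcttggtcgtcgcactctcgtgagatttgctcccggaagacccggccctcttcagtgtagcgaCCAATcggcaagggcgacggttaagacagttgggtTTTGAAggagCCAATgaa
Ccnb2, chr9:70421555-70421674, minus strand: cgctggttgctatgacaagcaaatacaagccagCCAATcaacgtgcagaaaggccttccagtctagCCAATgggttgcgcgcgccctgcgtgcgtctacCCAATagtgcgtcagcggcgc
Top2a, chr11:99024190-99024309, minus strand: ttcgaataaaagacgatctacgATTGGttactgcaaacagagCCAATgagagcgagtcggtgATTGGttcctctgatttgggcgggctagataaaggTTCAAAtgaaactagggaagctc
Mcm5, chr8:75109389-75109508, plus strand: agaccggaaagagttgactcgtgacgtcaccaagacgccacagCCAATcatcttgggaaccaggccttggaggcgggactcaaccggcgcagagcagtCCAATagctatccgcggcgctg
Mcm6, chr1:128359706-128359825, minus strand: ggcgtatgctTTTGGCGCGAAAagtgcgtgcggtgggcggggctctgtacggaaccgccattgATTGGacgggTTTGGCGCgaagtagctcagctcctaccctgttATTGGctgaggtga
In Cdk1, Cdc20 and Top2a a TTTGAA stands close to the 3′ end of the printed stretch, downstream of at least 1 CCAAT. Mcm6 holds the E2F letters 3 times and no TTTGAA in this stretch. Of these genes, Cdc20, the activator of the anaphase-promoting complex, had a log2 fold change of 0.54 in the 1-digit and 3.71 in the 3-digit libraries, and Ccnb2, a mitotic cyclin, of -0.05 in the 1-digit and 3.96 in the 3-digit libraries. Mcm6, a helicase subunit like Mcm5, had 0.91 in the 1-digit and 2.29 in the 3-digit libraries. The groups of day 0 and day 3 overlapped in these 3 genes.

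**Figure D3:**
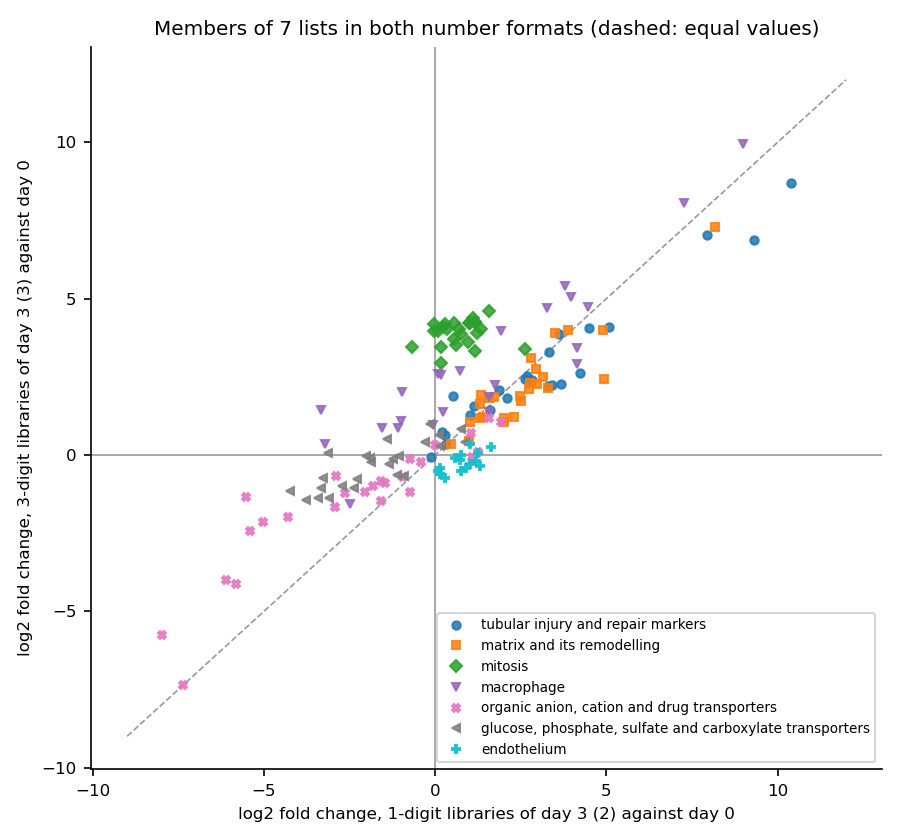
Each point is a tested member of 1 of 7 lists, with its log2 fold change against day 0 in the 1-digit libraries of day 3 on the horizontal axis and in the 3-digit libraries on the vertical axis. On the dashed line both are equal. The mitosis genes stand between 2.95 and 4.61 on the vertical axis and between -0.67 and 2.63 on the horizontal one, while most matrix genes lie near the line.

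All 26 genes of the extracellular matrix and its remodelling rose, in both formats (26 of 26 in each), and their groups did not overlap in 24. The median log2 fold change was 2.12 (2.50 and 1.91 in the 1-digit and 3-digit libraries), and the summed level went from 1103 to 1134 CPM at day 0 to between 2371 and 4971 CPM at day 3. Col3a1 (chr1:45311538-45349706), a fibrillar collagen, was at 27.4, 18.8, 20.97 and 16.4 CPM at day 0 and 344, 212, 454, 485 and 124 CPM at day 3 (log2 fold change 3.95 ± 0.67 SE, adjusted p = 0.000781, edgeR). Col1a1 (chr11:94936224-94953042), a chain of collagen I, was at 8.801, 6.24, 7.33 and 7.01 CPM and at 106, 62.8, 157, 117 and 50.2 CPM (3.75 ± 0.67 SE, adjusted p = 0.0011, edgeR). Col4a1, a chain of the collagen of basement membranes, was the most abundant of the list at 253, 236, 252 and 246 CPM and 674, 488, 571, 992 and 1427 CPM (1.75 ± 0.26 SE, adjusted p = 0.000367, edgeR). Lox, which crosslinks collagen, was at 0.978, 0.942, 1.39 and 1.63 CPM and 32.8, 6.25, 20, 45.5 and 28.4 CPM (4.42 ± 0.51 SE, adjusted p = 5.75e-05, edgeR). Fn1, fibronectin, was at 25.9, 27.2, 25.6 and 76.7 CPM and 102, 106, 154, 117 and 76.8 CPM (1.51 ± 0.32 SE, adjusted p = 0.0029, edgeR), where replicate 4 of day 0 was about level with the lowest library of day 3. Over the whole genome, 18 of 32 collagen chains rose and 4 fell (2 without replicate 5 of day 3). Of 43 genes named Mmp or Adam, which encode metalloproteinases and their relatives, 24 rose and 1 fell (2 without replicate 2 of day 3). Among 24 integrins 11 rose and none fell (1 without replicate 2 of day 3).

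Growth factors and their modulators did not move one way, with 6 of 22 higher and 6 lower, and with 11 and 6 at 1 digit and 7 and 5 at 3 digits. Egf (chr3:129677565-129755316), the epidermal growth factor made by the thick limb and distal tubule, was at 2006, 1989, 2052 and 1931 CPM at day 0 and at 36.2, 282, 54.5, 24.01 and 31.1 CPM at day 3 (log2 fold change -4.54 ± 0.82 SE, adjusted p = 0.00121, edgeR). Its day 0 libraries were almost level, and replicate 2 stood above the other 4 of day 3. Another ligand of the same receptor, Btc, fell as well (-1.48 ± 0.43 SE, adjusted p = 0.0168, edgeR), with 1 library of day 3 inside the range of day 0. A further ligand, Areg, had 1 read at day 0 and 0.305, 0.6195, 0.644, 0.202 and 1.03 CPM at day 3 (adjusted p = 0.0025, edgeR). Cyr61, a matricellular target of YAP signalling, was at 18, 12.9, 16.2 and 20.1 CPM and 53.5, 163, 118, 68.9 and 146 CPM (2.71 ± 0.35 SE, adjusted p = 0.000134, edgeR). Of 20 tubule transcription factors 2 rose (4 on total counts without TMM), 6 fell and 12 did not pass, and 11 fell at 1 digit and 7 at 3 digits. Emx1 fell (-1.47 ± 0.33 SE, adjusted p = 0.00458, edgeR). Hnf4a, a factor of proximal tubule identity and the most abundant of the list, was at 931, 1067, 888 and 818 CPM and 680.3, 947, 565, 521 and 492 CPM, with overlapping groups and just short of the threshold (-0.53 ± 0.20 SE, adjusted p = 0.0518, edgeR, with -0.87 at 1 digit, adjusted p = 0.00589, and -0.34 at 3 digits, adjusted p = 0.193). Ppara, the nuclear receptor that drives fatty acid oxidation genes, rose (1.19 ± 0.37 SE, adjusted p = 0.0242, edgeR), as did Tfcp2l1, a factor of the distal nephron and collecting duct (0.77 ± 0.22 SE, adjusted p = 0.0158, edgeR), whose groups overlapped.

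**Figure D4:**
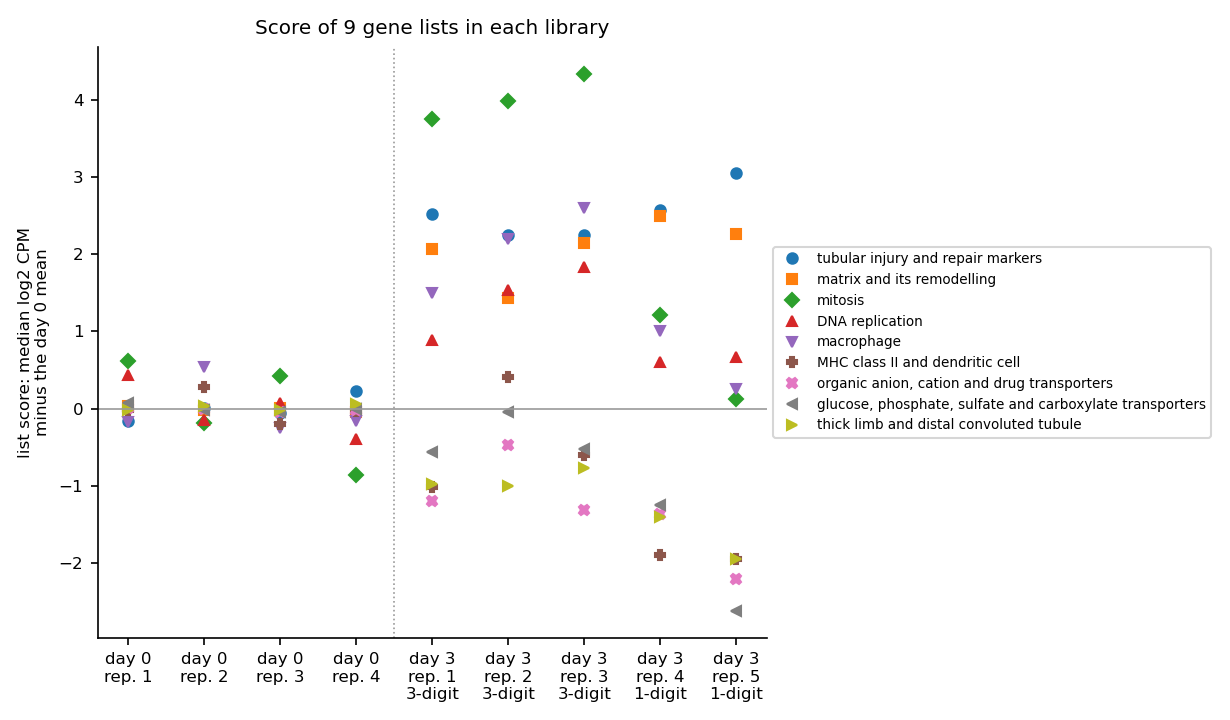
The list score, the median over the tested members of log2 CPM minus the day 0 mean, is plotted for 9 lists in each of the 9 libraries. Injury and matrix scores are above 1.4 in all 5 libraries of day 3. The mitosis score is 3.75 or higher in replicates 1 to 3 of day 3 and 1.22 or lower in replicates 4 and 5, and the score of glucose and phosphate transporters at day 3 runs from -2.62 to -0.04.

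Macrophage genes rose in 15 of 24 cases and fell in 1, with a median log2 fold change of 1.99 (1.14 in the 1-digit and 2.40 in the 3-digit libraries), and 11 of the 24 differed between the formats. At 1 digit 12 rose and 3 fell, and at 3 digits 19 rose and 1 fell. Cd68 (chr11:69664213-69666153), a lysosomal glycoprotein of macrophages, was at 2.36, 2.18, 1.26 and 2.12 CPM at day 0 and at 16.4, 10.1, 18.1, 24.6 and 45.5 CPM at day 3 (log2 fold change 3.53 ± 0.44 SE, adjusted p = 0.000105, edgeR). Lyz2, lysozyme, was at 26.7, 60.1, 28.7 and 20.02 CPM and at 150.4, 154, 303, 46.5 and 25.6 CPM (2.00 ± 0.72 SE, adjusted p = 0.0438, edgeR), with 0.09 in the 1-digit and 2.58 in the 3-digit libraries and overlapping groups. By contrast Csf1r (chromosome 18), the receptor for the macrophage growth factors CSF1 and IL-34, was at 83.98, 97.98, 92.9 and 86.05 CPM and at 21.2, 40.6, 30.1, 15.3 and 16.8 CPM (-1.86 ± 0.24 SE, adjusted p = 0.000123, edgeR), below day 0 in all 5 libraries. Adgre1, which encodes F4/80, was at 2.13, 12.4, 2.15 and 1.88 CPM and 2.04, 9.86, 5.74, 0.538 and 0.441 CPM, with overlapping groups, and did not pass the test (-0.31 ± 0.90 SE, adjusted p = 0.812, edgeR). Its values differed by format, -3.23 at 1 digit (adjusted p = 0.0143, edgeR) and 0.34 at 3 digits (adjusted p = 0.725, edgeR), and the difference between them had an adjusted p of 0.0302 (edgeR). The complement subunit C1qa was at 8.92, 15.5, 9.29 and 7.92 CPM and 13.6, 22.9, 24.4, 14.5 and 5.14 CPM (0.63 ± 0.35 SE, adjusted p = 0.18, edgeR, with -0.08 at 1 digit, adjusted p = 0.868, and 0.96 at 3 digits, adjusted p = 0.0328), also with overlap, and did not pass. The ligands of Csf1r, Csf1 (1.86 ± 0.37 SE, adjusted p = 0.00199, edgeR) and Il34 (1.97 ± 0.39 SE, adjusted p = 0.00198, edgeR), both rose. Il34 was at 20.1, 20.4, 18.5 and 23.6 CPM and 96.8, 29.96, 44.3, 87.3 and 147 CPM. Csf1 was at 6.04, 7.24, 8.09 and 5.503 CPM and 15.02, 44.2, 29.6, 9.82 and 23.6 CPM.

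Neutrophil genes rose in 8 of the 9 tested members (9 at 1 digit and 7 at 3 digits), and their summed level went from 1.88 to 2.42 CPM at day 0 to between 21.1 and 516 CPM at day 3. Members with almost no reads at day 0, such as Retnlg and Ngp, passed the expression filter only through libraries after injury. They could hardly be called lower, so the count of rises was largely set by the filter. The same holds for Cxcl2, Ccl20 and Il6 in the lists below. S100a8 (chr3:90668978-90670035), a calcium-binding alarmin of neutrophils, was at 0.518, 0.118, 0.316 and 0.121 CPM and at 36.2, 3.38, 20.1, 17.01 and 139 CPM (log2 fold change 7.28 ± 1.12 SE, adjusted p = 0.000433, edgeR), lowest in replicate 2 and highest in replicate 5. S100a9, its partner, was at 0.6903, 0.353, 0.442 and 0.484 CPM and 53.6, 8.11, 28.6, 26.6 and 189.9 CPM (6.93 ± 0.99 SE, adjusted p = 0.000243, edgeR). Ngp, a granule protein, passed the test (0.0226, adjusted p, edgeR) with 0.5599, 0.0563, 0.0495, 0.807 and 66.1 CPM at day 3 and 1 read at day 0, so the groups overlapped and nearly all of it stood in replicate 5. Ltf (2.61 ± 1.18 SE, adjusted p = 0.101, edgeR, with 3.75 at 1 digit, adjusted p = 0.00533, and 0.47 at 3 digits, adjusted p = 0.761) did not pass and its groups overlapped. Ly6g was not analysed here. Lymphocyte genes were scarce, since 3 of 18 T and NK cell genes in the table and 3 of 10 B and plasma cell genes could be tested. Lck, a kinase of T cell receptor signalling, rose (1.79 ± 0.35 SE, adjusted p = 0.00183, edgeR), and Cd8a fell (-2.93 ± 0.61 SE, adjusted p = 0.0028, edgeR), both at under 4 CPM. The complement receptor Cr2 fell (-2.13 ± 0.49 SE, adjusted p = 0.00517, edgeR) at under 2 CPM. Jchain, the joining chain of polymeric antibodies, passed the test as lower (-4.70 ± 1.14 SE, adjusted p = 0.00678, edgeR), but its 0.978, 0.883, 0.316 and 36.5 CPM at day 0 show that replicate 4 alone was high. At day 3 it was at 0.255, 0.338, 0.347, 0.605 and 0.294 CPM. Replicate 3 of day 0 lay within that range, and replicates 1 and 2 of day 0 lay above it at under 1 CPM. The defining genes Cd3e and Cd79a were too low to be tested.

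The chains of MHC class II, which present antigen to T helper cells, were lower or did not pass. Cd74 (chromosome 18), the invariant chain, was at 83.2, 104, 80.2 and 72.1 CPM at day 0 and at 13.3, 47.2, 13.4, 7.67 and 15.9 CPM at day 3 (log2 fold change -2.12 ± 0.45 SE, adjusted p = 0.00304, edgeR). The class II chains H2-Eb1 (-2.19 ± 0.45 SE, adjusted p = 0.00274, edgeR) and H2-Aa (-2.13 ± 0.53 SE, adjusted p = 0.00785, edgeR) fell as well. H2-Ab1 was at 51.4, 57.5, 45.04 and 54.1 CPM and 25.4, 68.9, 15.3, 15.1 and 14.7 CPM, with overlapping groups, and did not pass (-0.90 ± 0.43 SE, adjusted p = 0.121, edgeR, with -1.80 at 1 digit, adjusted p = 0.00402, and -0.51 at 3 digits, adjusted p = 0.289). In all 4 of these genes replicate 2 of day 3 was the highest of its day, and in H2-Ab1 it was above every library of day 0. Zbtb46, a transcription factor of dendritic cells that endothelium also expresses, was higher (0.92 ± 0.34 SE, adjusted p = 0.048, edgeR), with overlapping groups. Over the list of 9 tested genes 1 rose and 3 fell, with a median of -0.90, and of -2.45 and -0.33 within the formats. Without replicate 2 of day 3 the median was -1.56 and 4 fell, and none rose without replicate 5 or with RLE scaling. Among all 21 tested H2 genes, which share much sequence, 1 rose and 4 fell. On total counts without TMM 4 rose and 4 fell, without replicate 2 of day 3 there were 3 and 6, and without replicate 5 there were 0 and 5.

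Of 18 tested chemokines 10 rose and 1 fell, with a median of 2.92 at 1 digit and 1.23 at 3 digits. Ccl2 (chr11:82035571-82037453), which attracts monocytes, was at 0.4602, 1.12, 0.442 and 0.302 CPM and 6.31, 10.5, 10.7, 4.77 and 6.097 CPM (log2 fold change 3.71 ± 0.51 SE, adjusted p = 0.000188, edgeR). The neutrophil chemokine Cxcl2 had 3 reads in all at day 0 and 4.48, 1.29, 2.13, 4.71 and 20.3 CPM at day 3. Ccl20, which attracts cells with the receptor CCR6, had 2 reads and 0.713, 4.84, 1.14, 0.269 and 0.441 CPM. Cxcl12, the most abundant of the list, had overlapping groups and did not pass the test (-0.44 ± 0.25 SE, adjusted p = 0.18, edgeR, with -0.82 at 1 digit, adjusted p = 0.0335, and -0.23 at 3 digits, adjusted p = 0.516). The interferon-induced Cxcl10, at 1.78, 1.65, 1.2 and 1.39 CPM and 0.763, 5.58, 3.02, 1.01 and 2.64 CPM with overlap, did not pass either (0.79 ± 0.64 SE, adjusted p = 0.353, edgeR). Ccl28 (chr13:119623819-119654359), an epithelial chemokine, was the 1 that fell (-4.23 ± 0.99 SE, adjusted p = 0.00562, edgeR). Its day 0 values were 30.1, 29.7, 12.1 and 381 CPM, so replicate 4 carried most of its mean, and its day 3 values were 5.65, 5.97, 13.96, 3.497 and 0.588 CPM, of which replicate 3 overlapped day 0. Cytokines and their receptors rose in 19 of 24 cases and fell in 1, with a median of 2.10 (2.49 at 1 digit, where 21 rose, and 2.06 at 3 digits, where 20 rose). Il6 had 0 reads in the 4 libraries of day 0 and 0.967, 0.0563, 0.247, 1.68 and 5.803 CPM at day 3 (adjusted p = 0.0101, edgeR), lowest in replicate 2. Tnfrsf1a, a receptor of TNF, was at 46.8, 48.5, 50.4 and 47.2 CPM and 108, 63.1, 79.5, 93.7 and 145 CPM (1.02 ± 0.21 SE, adjusted p = 0.00235, edgeR). The gene that fell was Lifr, the receptor of leukemia inhibitory factor, at 89.04, 96.2, 98.7 and 105 CPM and 55.4, 62.9, 47.03, 54.6 and 35.7 CPM (-0.93 ± 0.20 SE, adjusted p = 0.00325, edgeR). In the complement system 8 of 16 rose and 1 fell, with 6 and 2 at 1 digit and 9 and 1 at 3 digits. C3 (chr17:57203970-57228136), the central component, was at 25.9, 34.8, 37.8 and 14.03 CPM and 499, 232, 408, 100 and 66.4 CPM (3.21 ± 0.79 SE, adjusted p = 0.0071, edgeR), with 1.56 in the 1-digit and 3.75 in the 3-digit libraries. C5ar1, a receptor of the fragment C5a, was at 0.288, 0.471, 0.253 and 0.181 CPM and 4.79, 2.42, 5.84, 2.82 and 6.17 CPM (3.85 ± 0.44 SE, adjusted p = 4.89e-05, edgeR). Cd55, which protects cells from complement, fell (-1.13 ± 0.20 SE, adjusted p = 0.0011, edgeR). Cfb, the most abundant gene of the list, had overlapping groups and did not pass (-0.72 ± 0.28 SE, adjusted p = 0.0576, edgeR, with -1.18 at 1 digit, adjusted p = 0.00281, and -0.48 at 3 digits, adjusted p = 0.128). Interferon-stimulated genes were the immune list with the fewest calls for its size, 4 of 21 higher and none lower (5 and 1 at 1 digit, 4 and 0 at 3 digits), a share close to the 19.5% of all genes that were higher. Ddx58, the RNA sensor RIG-I, was at 18.6, 19.5, 19.4 and 28.1 CPM and 51.5, 43.6, 51.8, 51.8 and 41.4 CPM (1.17 ± 0.16 SE, adjusted p = 0.000171, edgeR). Gbp2, a GTPase induced by interferon, was at 4.77, 6.59, 4.86 and 5.62 CPM and 12.2, 11.7, 12.1, 13.5 and 18.3 CPM (1.31 ± 0.26 SE, adjusted p = 0.00194, edgeR). Irgm1 did not pass in the pooled fit (0.52 ± 0.24 SE, adjusted p = 0.102, edgeR, with 0.52 at 1 digit, adjusted p = 0.0122, and 0.52 at 3 digits, adjusted p = 0.0109), although its groups did not overlap.

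Transporters of organic anions, cations and drugs fell in 15 of 26 cases and rose in 3, with a median log2 fold change of -1.25 (-1.71 in the 1-digit and -1.09 in the 3-digit libraries) and groups that did not overlap in 18. At 1 digit 18 fell and 5 rose, and at 3 digits 15 fell and 3 rose. Besides Slc22a7 and Slc22a19, given above, Slco1a1, an organic anion transporter of the apical membrane, was at 518, 481, 424 and 457 CPM and 61.6, 149, 149.5, 9.88 and 37.5 CPM (log2 fold change -2.53 ± 0.57 SE, adjusted p = 0.00475, edgeR). Slc22a8 (chr19:8591254-8611835), which encodes OAT3, was at 508, 471, 451 and 600.5 CPM and 109, 268, 168, 219 and 118 CPM (-1.53 ± 0.42 SE, adjusted p = 0.0143, edgeR), alike in both formats (-1.59 in the 1-digit and -1.48 in the 3-digit libraries). Slc22a6, which encodes OAT1 and is the most abundant of the list, was at 1435, 1230, 1173 and 1201 CPM and 1240, 929, 1047, 1027 and 866 CPM, with overlapping groups, and did not pass (-0.30 ± 0.17 SE, adjusted p = 0.18, edgeR). Thus these 2 basolateral carriers of much the same substrates had different values, a log2 fold change of -1.53 for Slc22a8 and of -0.30 for Slc22a6, and the difference between the genes was not tested. Of those that rose, Slco2a1 carries prostaglandins (1.46 ± 0.32 SE, adjusted p = 0.00402, edgeR) and Abcc2 is an apical efflux pump (1.35 ± 0.25 SE, adjusted p = 0.00142, edgeR). Abcc2 was at 97.4, 97.5, 98.7 and 133 CPM and 342, 146, 235, 403 and 236 CPM. Over all 21 tested Slc22 genes 12 fell and 1 rose, and over 8 Slco genes 5 fell and 1 rose.

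Amino acid transporters fell in 9 of 21 cases and rose in 1. At 1 digit 13 were lower (median -1.31) and at 3 digits 10 (median -0.52), and 9 of the 21 differed between the formats. Slc7a13 (chr4:19818725-19842218), a partner of rBAT in cystine transport in the late proximal tubule, was at 1015, 1203, 1186 and 857 CPM at day 0 and 28.1, 241, 70.9, 11.7 and 4.04 CPM at day 3 (log2 fold change -3.90 ± 1.05 SE, adjusted p = 0.0119, edgeR), with -7.07 in the 1-digit and -3.23 in the 3-digit libraries. Tmem27, which encodes collectrin, needed to bring neutral amino acid transporters to the brush border, was at 2015, 2122, 2254 and 1825 CPM and 489, 1428, 445, 387 and 240 CPM (-1.78 ± 0.48 SE, adjusted p = 0.0119, edgeR). Slc7a12 fell too (-3.55 ± 0.94 SE, adjusted p = 0.0111, edgeR). Slc6a19, the main carrier of neutral amino acids of the early proximal tubule, was at 208, 158, 167 and 197 CPM and 258, 276, 109, 486 and 283 CPM, with replicate 3 of day 3 below and the other 4 above every library of day 0, and did not pass (0.63 ± 0.46 SE, adjusted p = 0.302, edgeR, with 1.08 at 1 digit, adjusted p = 0.026, and 0.23 at 3 digits, adjusted p = 0.628). Slc7a5, the large neutral amino acid transporter LAT1 of growing cells, was the 1 that rose, at 3.11, 2.88, 1.64 and 3.51 CPM and 13.7, 12.1, 13.4, 10.4 and 14.3 CPM (2.19 ± 0.22 SE, adjusted p = 1.55e-05, edgeR), with no overlap and 2.14 in the 1-digit and 2.23 in the 3-digit libraries.

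Glucose, phosphate, sulfate and carboxylate transporters fell in 7 of 25 cases and rose in 2. Their median log2 fold change was -0.63, but it was -1.87 in the 1-digit libraries, where 19 of 25 were lower than day 0, and -0.21 in the 3-digit libraries, where 7 were, and 12 of the 25 differed between the formats. Without replicate 2 of day 3, 11 were lower and the median was -1.04, and without replicate 5 the median was -0.40 and 6 were lower. Slc34a1 (chr13:55398187-55415592), the sodium-phosphate cotransporter of the proximal tubule, was at 5387, 4534, 4306 and 4875 CPM and at 982, 4084, 1335, 226 and 278 CPM. All 5 libraries of day 3 were below day 0, replicate 2 only slightly, and the pooled difference did not pass the test (log2 fold change -1.79 ± 0.81 SE, adjusted p = 0.102, edgeR). Taken by format, the value was -4.25 for the 1-digit libraries (adjusted p = 8.43e-05, edgeR) and -1.16 for the 3-digit libraries (adjusted p = 0.0454, edgeR). Slc5a2, the glucose transporter SGLT2, was at 494, 434, 406 and 388 CPM and 217, 673, 165, 122 and 218 CPM, where replicate 2 of day 3 exceeded every library of day 0, and did not pass (-0.63 ± 0.51 SE, adjusted p = 0.358, edgeR, with -1.34 at 1 digit, adjusted p = 0.0326, and -0.29 at 3 digits, adjusted p = 0.613). Slc17a3, an organic anion and urate carrier, fell (-1.89 ± 0.45 SE, adjusted p = 0.00653, edgeR), and so did Slc5a8, a sodium-coupled carrier of lactate and short-chain fatty acids (-1.84 ± 0.62 SE, adjusted p = 0.0344, edgeR). Both genes that rose, Slc20a1 (0.79 ± 0.25 SE, adjusted p = 0.026, edgeR) and Slc20a2 (0.61 ± 0.19 SE, adjusted p = 0.0223, edgeR), encode phosphate transporters found in most tissues, and the groups overlapped in Slc20a2.

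Genes of endocytosis and the brush border fell in 9 of 19 cases and rose in none, with a median of -1.10. At 1 digit 16 were lower (median -1.39) and at 3 digits 7 (median -0.77), and 8 differed between the formats. Lrp2 (chr2:69424340-69586065), megalin, the receptor that takes up filtered proteins, was at 3274, 3086, 3192 and 3436 CPM and 488, 2570, 1397, 298 and 206 CPM (log2 fold change -1.71 ± 0.59 SE, adjusted p = 0.0382, edgeR), with -3.69 in the 1-digit and -1.13 in the 3-digit libraries. Its partner cubilin, Cubn, was at 588, 557, 576 and 464 CPM and 169.5, 433, 347, 107 and 53.03 CPM (-1.30 ± 0.45 SE, adjusted p = 0.0397, edgeR). Aqp1, the water channel of the proximal tubule and thin limb, was at 1501, 1551, 1607 and 1348 CPM and 585, 801, 555, 319.8 and 59.2 CPM (-1.69 ± 0.54 SE, adjusted p = 0.026, edgeR). Mep1a, the other meprin subunit, was at 2596, 2814, 2832 and 2620 CPM and 299, 1041, 470.5, 363 and 230.3 CPM (-2.50 ± 0.35 SE, adjusted p = 0.000207, edgeR). In Lrp2 and Cubn the order of the libraries of day 3 was the same, with replicate 2 highest, then replicates 3, 1, 4 and 5.

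The thick limb and distal convoluted tubule list had the most falls, 19 of 28, with none higher, and its groups did not overlap in 19. The median log2 fold change was -0.995 (-1.30 in the 1-digit and -0.80 in the 3-digit libraries). At 1 digit 22 fell and 2 rose, at 3 digits 16 fell and 1 rose, and 14 of the 28 differed between the formats. Umod (chr7:119462711-119479282), uromodulin, the most abundant protein of normal urine, was at 5900, 6280, 6567 and 4331 CPM and 2408, 1986, 2523, 1865 and 2809 CPM (log2 fold change -1.31 ± 0.21 SE, adjusted p = 0.000559, edgeR), alike in both formats (-1.30 in the 1-digit and -1.32 in the 3-digit libraries). Slc12a1 (chr2:125152505-125230002), the loop diuretic target NKCC2, was at 1671, 2100, 2060 and 1275 CPM and 262, 430.4, 614, 76.7 and 26.1 CPM (-2.65 ± 0.62 SE, adjusted p = 0.00582, edgeR), with -5.11 in the 1-digit and -2.03 in the 3-digit libraries (adjusted p of the difference = 0.00299, edgeR). So these 2 genes of the same segment differed in how far the formats parted. Slc12a3, the thiazide target NCC, was at 396, 342, 317 and 528 CPM and 127, 191, 92.6, 104 and 82.3 CPM (-1.73 ± 0.27 SE, adjusted p = 0.000446, edgeR). Kl (chr5:150952607-150993817), Klotho, the coreceptor of FGF23, was at 846, 712, 764 and 815 CPM and 159, 411, 255, 113 and 54.7 CPM (-1.98 ± 0.47 SE, adjusted p = 0.00579, edgeR). Pvalb, a calcium buffer of the early distal convoluted tubule, was at 44.4, 48.2, 44.9 and 54.7 CPM and 0.305, 3.94, 0, 0.471 and 1.69 CPM (-5.24 ± 0.99 SE, adjusted p = 0.00162, edgeR). Ptger3, a prostaglandin receptor of the thick limb, was at 96.6, 94.98, 112 and 72.5 CPM and 12.6, 18.9, 16.3, 9.01 and 5.21 CPM (-2.92 ± 0.38 SE, adjusted p = 0.000139, edgeR).

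In the collecting duct, 6 of 15 principal cell genes fell and 1 rose, and 9 of 15 intercalated cell genes fell and none rose. Lower at 1 digit were 8 principal and 11 intercalated cell genes, and at 3 digits 5 and 9. Aqp4, a basolateral water channel, was at 106, 121, 165 and 95.5 CPM and 16.1, 8.84, 52.7, 11.2 and 4.04 CPM (log2 fold change -2.71 ± 0.81 SE, adjusted p = 0.0204, edgeR). The vasopressin receptor Avpr2 was at 27.5, 34.3, 33.5 and 40.6 CPM and 5.34, 9.69, 16.9, 4.98 and 5.66 CPM (-1.99 ± 0.47 SE, adjusted p = 0.00623, edgeR). Aqp2, the water channel under vasopressin control, was at 374, 358, 462 and 654 CPM and 296, 122, 413, 192 and 87.05 CPM, with 1 library of day 3 inside the range of day 0, and did not pass (-1.06 ± 0.43 SE, adjusted p = 0.0714, edgeR, with -1.73 at 1 digit, adjusted p = 0.00654, and -0.74 at 3 digits, adjusted p = 0.151). Among intercalated cell genes Slc4a1, the chloride-bicarbonate exchanger of acid-secreting cells, was at 62.1, 58.3, 64.2 and 47.8 CPM and 0.916, 12, 11.1, 2.35 and 3.82 CPM (-3.26 ± 0.53 SE, adjusted p = 0.000607, edgeR). The proton pump subunits Atp6v1g3 (0.27 ± 0.21 SE, adjusted p = 0.334, edgeR) and Atp6v0a4 (0.29 ± 0.29 SE, adjusted p = 0.455, edgeR) had overlapping groups and did not pass. Of 12 genes of the sodium-potassium pump, which powers most of this transport, and of potassium channels 2 rose and 3 fell, with 2 and 4 at 1 digit and 4 and 3 at 3 digits. Fxyd5, a regulator of the pump, had the largest rise (1.99 ± 0.22 SE, adjusted p = 3.11e-05, edgeR).

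Over the genome, 79 of 298 solute carrier genes fell (26.5%) and 45 rose (15.1%), against 13.8% and 19.5% of all genes. In 11 of the 20 carrier families with 5 or more genes tested more genes fell than rose, in 4 more rose, and in 5 the counts were equal. Of the mitochondrial carriers, Slc25, 10 of 43 fell and 6 rose, and of the 11 Slc7 genes 3 fell and 5 rose. The largest rise of a carrier past the test was that of Slc7a11, the cystine-glutamate exchanger, from a mean of 0.224 ± 0.102 CPM (SD, n = 4) to 3.95 ± 2.29 CPM (SD, n = 5) (4.09 ± 0.67 SE, adjusted p = 0.000635, edgeR). Aquaporins fell in 4 of 8 cases and none rose, ABC transporters fell in 8 of 37 and rose in 3 (5 without replicate 2 of day 3), and the potassium channel genes named Kcn fell in 11 of 41 and rose in 8. Claudins, which set the permeability of tight junctions, rose in 4 of 18 and fell in 2, led by Cldn4 (3.82 ± 0.67 SE, adjusted p = 0.00103, edgeR).

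**Figure D5:**
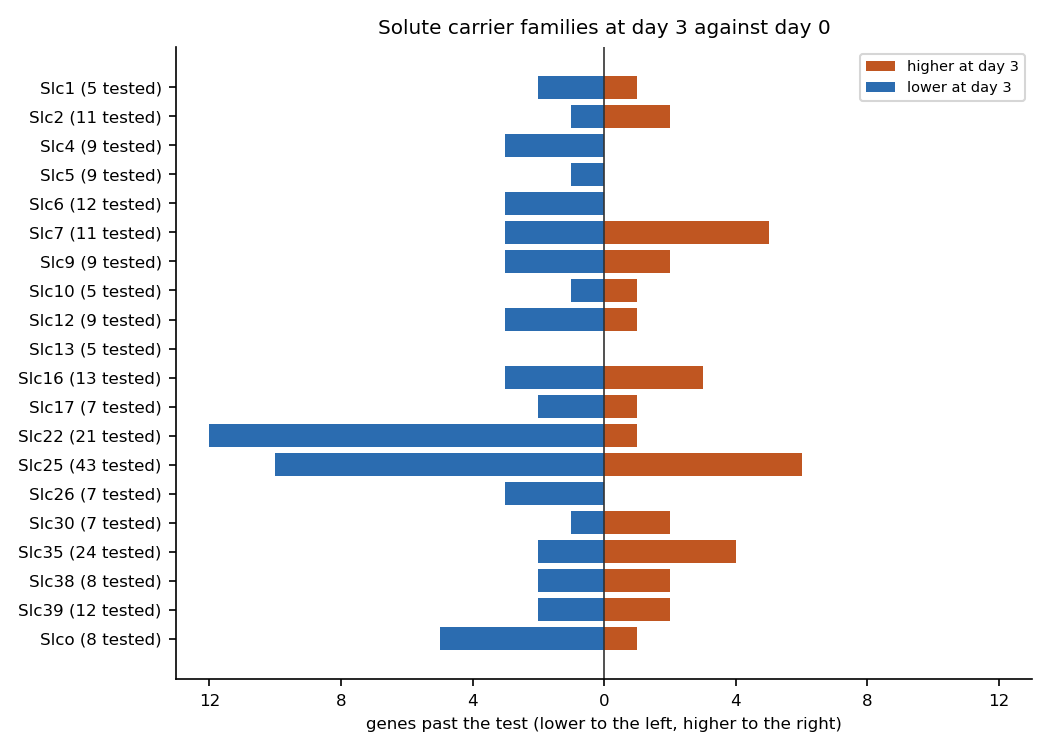
Bars give the number of genes past the test in each solute carrier family with at least 5 genes tested, lower at day 3 to the left and higher to the right. The organic ion carriers Slc22 have 12 lower and 1 higher, and the Slc7 family of amino acid carriers has 5 higher and 3 lower.

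Metabolic lists did not move one way. Of 25 genes of fatty acid oxidation 7 rose and 7 fell, with a median log2 fold change of 0.19. At 1 digit 11 rose and 8 fell, and at 3 digits 6 rose and 7 fell. Those that rose most were Cyp4a14 and Cyp4a10, microsomal enzymes that hydroxylate fatty acids, whose similar sequences may split reads. Cyp4a14 (chr4:115486200-115496142) was at 7.71, 6.53, 19.1 and 9.55 CPM and 2372, 176, 1328, 2654 and 604 CPM (log2 fold change 7.05 ± 1.36 SE, adjusted p = 0.00178, edgeR). Cyp4a10 was at 246, 266, 357 and 231 CPM and 1490, 642, 1164, 975 and 743 CPM (1.87 ± 0.66 SE, adjusted p = 0.041, edgeR). On the other side, Acadm (chr3:153922357-153944632), the medium-chain acyl-CoA dehydrogenase, was at 1161, 1288, 1262 and 1509 CPM and 554, 481, 519, 379 and 238 CPM (-1.59 ± 0.22 SE, adjusted p = 0.000184, edgeR). Acsm2, a mitochondrial medium-chain acyl-CoA synthetase and the most abundant of the list, was at 8454, 7915, 7811 and 7477 CPM and 2174, 4899, 2154, 1444 and 1289 CPM (-1.73 ± 0.39 SE, adjusted p = 0.0048, edgeR). Ppargc1a, the coactivator of mitochondrial biogenesis, was at 94.8, 97.2, 96.8 and 87.9 CPM and 50.2, 57.05, 52.9, 42.8 and 24.6 CPM (-1.05 ± 0.21 SE, adjusted p = 0.00206, edgeR). None of the 8 genes of gluconeogenesis and fructose use passed in the pooled fit, but 4 were lower at 1 digit (median -0.83), and 1 was higher and 1 lower at 3 digits (median -0.22). Pck1, which makes phosphoenolpyruvate, was at 3718, 3508, 3356 and 3120 CPM and 8553, 3693, 8916, 8602 and 2980 CPM. So 3 libraries of day 3 were high, replicate 2 lay within the range of day 0 and replicate 5 below it (0.94 ± 0.45 SE, adjusted p = 0.12, edgeR, with 0.76 at 1 digit, adjusted p = 0.132, and 1.04 at 3 digits, adjusted p = 0.044). Glycolysis genes rose in 3 of 17 and fell in 4, or in 1 on total counts without TMM (4 and 5 at 1 digit, 3 and 3 at 3 digits). Hk2, a hexokinase scarce in normal kidney, rose from 0.403, 0.883, 0.379 and 1.15 CPM to 4.17, 7.997, 6.83, 3.29 and 3.82 CPM (2.88 ± 0.48 SE, adjusted p = 0.000767, edgeR). Slc16a1, a lactate transporter, was at 64.9, 62.7, 62.4 and 59.8 CPM and 297, 63.4, 129, 285 and 312 CPM (1.80 ± 0.41 SE, adjusted p = 0.00504, edgeR), with replicate 2 level with day 0. Pfkl and Pfkm, phosphofructokinases, fell (-1.12 ± 0.33 SE, adjusted p = 0.0198, edgeR, and -0.90 ± 0.21 SE, adjusted p = 0.00603, edgeR). Pkm, pyruvate kinase, had overlapping groups and did not pass (0.46 ± 0.24 SE, adjusted p = 0.153, edgeR, with 0.95 at 1 digit, adjusted p = 0.000404, and 0.00 at 3 digits, adjusted p = 1).

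Gene families of basic cell machinery were counted by symbol. Of 79 ribosomal protein genes named Rpl or Rps 68 rose and none fell, with a median log2 fold change of 0.77 (0.90 on total counts without TMM and 0.75 with RLE scaling). With the 3-digit libraries of day 3 alone the median was 0.57 and 56 rose, and with the 1-digit libraries alone it was 0.97 and 73 rose. Many of these genes have processed copies in the genome that share sequence, so their levels are uncertain. Of 44 subunits and assembly factors of respiratory complex I named Nduf 16 fell and none rose, with a median of -0.32. On total counts without TMM 7 fell and 2 rose, and without replicate 5 of day 3 only 8 fell. Of 48 proteasome genes 8 rose and none fell, a share below the 19.5% of all genes that were higher. The count was 18 on total counts without TMM or without replicate 2 of day 3, 6 with RLE scaling, and 5 (with 1 lower) without replicate 5. The Cyp family fell in 19 of 47 and rose in 15, or 16 each on total counts without TMM or without replicate 5 of day 3. Glucuronosyltransferases fell in 6 of 14 and rose in 2, and without replicate 5 of day 3 they fell in 4 and rose in 4.

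Markers of other cell types were measured in the same libraries, and their part in the results above was not tested. Of 15 endothelial genes none passed in the pooled fit, but 11 were higher than day 0 in the 1-digit libraries (median 0.76) and 3 lower in the 3-digit libraries (median -0.28), and 11 differed between the formats. Without replicate 2 of day 3, 3 were higher. Pecam1, the endothelial adhesion molecule CD31, was at 42.9, 43.9, 44.03 and 61.2 CPM and 58.1, 30.7, 62.8, 90.1 and 140 CPM (log2 fold change 0.67 ± 0.32 SE, adjusted p = 0.117, edgeR, with 1.26 at 1 digit, adjusted p = 0.00157, and 0.08 at 3 digits, adjusted p = 0.842), with overlap, lowest in replicate 2 and highest in replicate 5. Of 14 fibroblast and pericyte genes 6 rose (5 at 1 digit and 7 at 3 digits). Pdgfrb (chromosome 18), a receptor of platelet-derived growth factor on these cells, was at 25.1, 24.7, 22.8 and 19.2 CPM and 79.9, 41.3, 70.9, 120 and 186 CPM (2.12 ± 0.35 SE, adjusted p = 0.00067, edgeR). Fbn1, fibrillin, was at 6.097, 5.83, 5.43 and 6.23 CPM and 52.5, 27.4, 51.9, 70.1 and 48.5 CPM (3.08 ± 0.24 SE, adjusted p = 4.19e-06, edgeR). Smooth muscle genes rose in 5 of 10 cases, and in 2 without replicate 5 of day 3. Their median was 1.64 at 1 digit and 0.47 at 3 digits, and 6 differed between the formats. Acta2 (chr19:34241090-34255590), smooth muscle actin, was at 15.1, 14.1, 10.3 and 20.4 CPM and 100.2, 46.7, 65.4, 273 and 224 CPM (3.24 ± 0.62 SE, adjusted p = 0.00169, edgeR). Tagln (chr9:45929619-45936058), transgelin, was at 23.8, 22.9, 22.2 and 30.5 CPM and 139.9, 92.9, 83.4, 535 and 359 CPM (3.28 ± 0.57 SE, adjusted p = 0.000986, edgeR). Both were highest in replicates 4 and 5. Of 10 podocyte genes only Synpo passed (0.79 ± 0.28 SE, adjusted p = 0.0429, edgeR), with overlapping groups, and 3 did without replicate 2 of day 3. Urothelial genes summed to 6.12 to 92.3 CPM at day 0, highest in replicate 4, and to 4.51 to 57.2 CPM at day 3, and Upk2 passed as lower (-4.44 ± 1.37 SE, adjusted p = 0.0233, edgeR) with 6.77 CPM in replicate 4 of day 0 and at most 1.09 CPM in any other library, so the groups overlapped. The fat cell list had 4 genes tested and the red cell list 1, Alas2, and none passed in the pooled fit, while 3 fat cell genes were higher at 1 digit. Immediate early genes, which cells switch on within minutes of stress or handling, rose in 10 of 15 cases (5 without replicate 5 of day 3), with a median of 2.43 at 1 digit and 1.28 at 3 digits, and their sum was 264 to 324 CPM at day 0 and 414 to 1018 CPM at day 3. Klf6 was the most abundant of them, at 35.4, 39.2, 38.2 and 35.3 CPM and 189, 139, 161, 233 and 276 CPM (2.43 ± 0.42 SE, adjusted p = 0.000877, edgeR).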

How the data were processed

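TRIzol was used to extract kidney RNA, and Illumina TruSeq kits to prepare libraries. Per the labels and the submitters' processing notes, the authors trimmed reads with Trimmomatic, aligned them to mm10 with STAR and deposited raw counts of reads per gene, with no normalization. Their versions are not given in the sources used here. The stranded count column was used, which held 98.6 to 98.8% of the strand-assigned reads, and 29.0 to 38.3% of reads, which named no gene, were left out. STAR counts only uniquely mapped reads, which lowers genes with near-identical copies.

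Genes were filtered by filterByExpr and scaled by TMM, and day 3 was contrasted with day 0 by the quasi-likelihood test of edgeR 4.0.16 (R 4.3.3) fitted to the 14 libraries together, and p was adjusted by the Benjamini-Hochberg method and called at 0.05. CPM are relative to the reads on genes of a library. A fold was not given where no library of day 0 had over 3 reads. Replicates differed beyond counting noise (chi-square per degree of freedom 5.69 to 24.8 at day 0 and 48.3 to 212 at day 3). On simulated data 170 of 200 genes changed by 2 on the log2 scale were recovered among 14165, with 9 false calls. These data held no effect of number format and far fewer changed genes than were called here, so they do not measure the false calls above.

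The gene lists and members were chosen with earlier results of these data known. Genes were named by a rule: across the genome, the 12 largest rises and falls past the test, if no libraries of the groups overlapped and the mean reached 5 CPM; in each list, the most abundant member and the 2 largest rises and falls past the test; in symbol families, the largest rise and fall; and a set of genes well known in kidney injury. Ccnb2, Cdc20, Itgb6, Dcdc2a, Ltf, Krt8, Krt18 and Krt19 fall outside the rule and were chosen after their values were seen. Some genes that meet the rule are not reported here. Positions are from GENCODE vM21 on GRCm38. Alternatives were RLE scaling, total counts without TMM, other count filters, DESeq2 1.42.0, the unstranded column, the libraries of day 0 and day 3 alone, a number format term, each format alone, a replicate block, a fold threshold, and each library left out.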

Additional observations from a re-analysis of the deposited data

Results flagged for a closer look

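In 178 groups of values (list scores and CPM of named genes by day), 16 held a library whose gap to the others passed Dixon's 95% value, where chance gives about 1 in 20, or 8.9. Of these, 6 were at day 0 and 10 at day 3.

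At day 3, replicate 2 stood above the other 4 libraries in 7 genes. Its values were 4084 CPM for Slc34a1 (the others 226 to 1335), 673 CPM for Slc5a2 (122 to 218), 241 CPM for Slc7a13 (4.04 to 70.9), 282 CPM for Egf (24.0 to 54.5), 47.2 CPM for Cd74 (7.67 to 15.9), 68.9 CPM for H2-Ab1 (14.7 to 25.4) and 62.2 CPM for Vcam1 (9.35 to 23.8). This library was also the nearest to day 0. Replicate 5 of day 3, the library farthest from day 0, stood apart in Krt20 with 878 CPM (52.6 to 225), in S100a8 with 139 CPM (3.38 to 36.2) and in the score of tubule transcription factors with -0.93 (-0.53 to -0.42).

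At day 0, replicate 4 stood above the rest in Krt20 with 2.54 CPM (0.0575 to 0.471), in Fn1 with 76.7 CPM (25.6 to 27.2), in Pecam1 with 61.2 CPM (42.9 to 44.0) and in the fibroblast and pericyte score with 0.15 (-0.05 to -0.02). Replicate 2 of day 0 stood above the rest in Adgre1 with 12.4 CPM (1.88 to 2.15) and in the macrophage score with 0.54 (-0.26 to -0.16).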

How the results depend on the processing

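Genes higher at day 3 numbered 2783, and 1707 with a log2 fold change of at least 1. Leaving out each library in turn gave 1980 to 3145. Genes lower numbered 1974, and 1286 on total counts without TMM, 3148 with the number format as a term, 1089 with the 3-digit libraries of day 3 alone, 890 with a log2 fold change of at least 1, and 1358 to 2514 with each library left out. DESeq2 gave 3051 and 2477. The median log2 fold change of DNA replication genes was 0.71 with the format term and 0.56 with the 1-digit libraries alone, where mitosis genes had 0.65 (1.70 with the format term) and glucose and phosphate transporters -1.91. The cause was not tested. Of 3005 values for the 153 named genes with a fit, under 20 settings, 2803 had the same direction and side of the threshold as reported. None of the 127 genes past the test changed direction. Many of these 127 were named for large changes past the test, some also for groups without overlap, so a change of direction was unlikely from the start. Those that did change direction had not passed. With each format alone, Atp6v0a4 had -0.36 and Alas2 0.16 (1-digit), C1qa -0.12 (1-digit), Plvap -0.40 and Fabp4 -0.0007 (3-digit, while both passed the test as higher with the formats fitted apart at 1 digit, 0.89 and 1.32) and Adgre1 0.34 (3-digit). With the format term Atp6v0a4 had -0.067 and Alas2 0.26. With each library left out in turn, Atp6v0a4 ran from -0.0468 (without day 3 replicate 1) to 0.48, Plvap from -0.0612 (without day 3 replicate 5) to 0.47, Psca from -1.69 to 1.33 (without day 0 replicate 4) and Adgre1 from -1.06 to 0.87 (without day 0 replicate 2). Same-numbered libraries of day 0 and day 3 deviated together only weakly (correlations 0.0555, 0.0876, 0.00925 and 0.261), and pairs of unlike number had -0.22 to 0.187. With so few pairs, these values cannot decide whether the numbers mark pairs. The replicate block gave 2311 higher and 1792 lower, and Psca 0.12. At 12485579 to 19168972 reads a gene at 0 reads may still be present at under 3 reads per library.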

Other observations

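Further symbol families were counted across the genome, where 19.5% of genes were higher and 13.8% lower. Serpins, most of which inhibit proteases, rose in 13 of 26 cases and fell in 2, with a median log2 fold change of 0.79. The largest rise was that of Serpinb9b, which had at most 1 read in any library of day 0 and 1.93, 13.9, 2.33, 1.61 and 0.514 CPM at day 3. Keratins rose in 6 of 12 cases and none fell, with a median of 1.56 (2.19 in the 1-digit and 0.88 in the 3-digit libraries). The keratins of simple epithelia Krt8 (log2 fold change 1.94 ± 0.20 SE, adjusted p = 2e-05, edgeR), Krt18 (2.59 ± 0.32 SE, adjusted p = 0.000105, edgeR) and Krt19 (2.50 ± 0.60 SE, adjusted p = 0.00632, edgeR) all rose. Toll-like receptors, which sense microbial and tissue-derived ligands, rose in 5 of 10 cases and fell in 1 (0 without replicate 5 of day 3 or on total counts without TMM), led by Tlr8 (3.13 ± 0.65 SE, adjusted p = 0.00287, edgeR). Glutathione S-transferases rose in 5 of 19 cases and fell in 1 (5 and 5 with the 1-digit libraries of day 3 alone), with a median of 0.04, and the largest rise was that of Gsta1, at 0.403, 0.353, 0.1895 and 0.786 CPM in the libraries of day 0 and 9.82, 0.225, 5.64, 44.2 and 16.8 CPM in those of day 3 (5.12 ± 1.10 SE, adjusted p = 0.00339, edgeR), where replicate 2 of day 3 lay within the range of day 0. Gsta1 and its relatives are similar in sequence and may share reads.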
